A study of Homo sapiens with 6 samples.

Results

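SLAMF7 and PTPN22 encode proteins best known from cells of the immune system, and CEACAM1 encodes a receptor of many epithelia and of activated lymphocytes. All 3 transcripts were measured here in a line of epithelial lung cancer cells. They were taken from the authors' deposited table of changed genes by gene symbol, so they are 3 of the 1305 genes that the table holds. That table had already been selected on the comparison of mitoxantrone with DMSO. The differences of the 3 genes between the groups are therefore given as a description, without a test. The values that put them in the table were the authors' deposited log2 fold changes and adjusted p-values, given below.

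RNA came from NCI-H292 cells, an established human line from a lung cancer, after 48 hours of culture with 50 nM mitoxantrone (3 libraries) or with the solvent DMSO at 1 in 1000 (3 libraries). Mitoxantrone, a drug of cancer chemotherapy, inserts into DNA and holds topoisomerase II there in a broken complex. The title of the series names a study of senescence, in which cells stop dividing for good, and of LUNX as a therapy target. The labels do not say whether the replicates were separate cultures, so any p-value or SD measures only the spread between these libraries, which may be technical. The libraries held 14762544 to 15663331 assigned reads with mitoxantrone and 15789353 to 17817782 with DMSO, as solved from the deposited FPKM values (reads scaled by gene length and by library size). The genes of the table took 6.08% to 6.20% of these reads with mitoxantrone and 3.97% to 4.04% with DMSO.

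CEACAM1 is an adhesion receptor of the immunoglobulin superfamily. It binds itself and other CEACAM proteins on neighbouring cells, is made by many epithelia and by activated lymphocytes, and in its long-tailed forms carries cytoplasmic tyrosine motifs that recruit the phosphatases SHP-1 and SHP-2. SLAMF7 belongs to the SLAM family of receptors, most of which bind themselves on a neighbouring cell. It is found on natural killer cells, plasma cells and some other leukocytes, and is the target of the antibody elotuzumab. PTPN22 is a cytoplasmic tyrosine phosphatase of blood cells that removes phosphate from Src family kinases and ZAP70 and so limits signalling from the T cell receptor.

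The deposited table placed CEACAM1 (ENSG00000079385) on chromosome 19 from 43011456 to 43065386 on the minus strand. It placed SLAMF7 (ENSG00000026751) on chromosome 1 from 160709037 to 160724611 on the plus strand and PTPN22 (ENSG00000134242) on chromosome 1 from 114356433 to 114414381 on the minus strand. The build of these coordinates is not given in the sources used here. For CEACAM1 and PTPN22 they do not match GRCh38, the build of the promoters printed below. The promoter positions therefore cannot be set against them. For CEACAM1 and PTPN22 the exons of all transcripts in GENCODE release 29 added up to 5524 and 4503 bases, the same lengths as in the table. For SLAMF7 they added up to 4833 bases, against 4604 in the table. The reads were counted per gene, so the 8, 9 and 6 protein-coding transcripts that GENCODE gives for CEACAM1, SLAMF7 and PTPN22 cannot be told apart, and neither can long and short tails of CEACAM1. CEACAM1 also resembles other CEACAM genes in its extracellular part, so a share of its reads may have been dropped or given to a relative. Reads of a relative may equally have been counted for CEACAM1.

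The 250 bases before the transcript start were read for the genes that the RefSeq promoter table holds, to show what lies in front of transcripts that were higher together. CEACAM1 and PTPN22 matched, on build GRCh38.p14, and SLAMF7 did not. Capitals mark matches, on either strand, to 6 motifs: AP-1 (TGANTCA), the GAS element of STAT factors (TTCNNNGAA), the core of IRF sites (AANNGAAA), the TATA box (TATAAA), and the NF-kappaB consensus and the p53 half-site, which need letters for alternative bases. The CEACAM1 sequence lies at chr19:42528482-42528731 and the PTPN22 sequence at chr1:113871713-113871962, both read on the minus strand, 5′ to 3′.
CEACAM1: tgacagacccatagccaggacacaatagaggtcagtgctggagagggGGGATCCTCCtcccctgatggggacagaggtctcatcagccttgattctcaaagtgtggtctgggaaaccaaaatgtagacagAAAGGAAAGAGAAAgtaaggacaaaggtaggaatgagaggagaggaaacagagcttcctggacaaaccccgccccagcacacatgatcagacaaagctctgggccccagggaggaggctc
PTPN22: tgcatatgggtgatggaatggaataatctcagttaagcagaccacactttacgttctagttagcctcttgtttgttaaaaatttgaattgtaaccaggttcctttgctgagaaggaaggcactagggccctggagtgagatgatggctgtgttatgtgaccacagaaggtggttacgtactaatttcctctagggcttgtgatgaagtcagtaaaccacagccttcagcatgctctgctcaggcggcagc
In front of CEACAM1 the capitals are 1 match to the NF-kappaB consensus (GGGATCCTCC) and 2 overlapping matches to the IRF core (AAAGGAAA and AAGAGAAA). Of all 35116 promoters of that length, 9.96% held a match to the NF-kappaB consensus and 20.3% to the IRF core. No match to any of the 6 motifs was in the PTPN22 window. AP-1 was matched in 6.57% of all promoters, the GAS element in 6.57%, the TATA box in 10.7% and the p53 half-site in 5.57%. These letter matches are a description of the windows and say nothing of binding.

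CEACAM1 had 211, 266 and 275 reads in the mitoxantrone libraries, against 24, 11 and 12 in the DMSO libraries. Divided by the authors' size factors, these were 239, 277 and 295 normalized reads with mitoxantrone and 20.6, 11.3 and 10.3 with DMSO. The groups were far apart: the lowest mitoxantrone library held 11.6 times the normalized reads of the highest DMSO library, which was replicate 1. The mean was 270.3 ± 28.9 normalized reads with mitoxantrone and 14.1 ± 5.69 with DMSO (SD, n = 3 each). The fitted log2 fold change was 4.24 (standard error 0.24), an 18.9-fold higher level. Without DMSO replicate 1 the fold change was 24.8. The 752 reads summed over the mitoxantrone group carry a 95% exact Poisson interval of 699 to 808, and the 47 reads over the DMSO group one of 34.5 to 62.5. These intervals cover counting error only.

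SLAMF7 had 275, 249 and 215 reads with mitoxantrone, against 32, 38 and 32 with DMSO. Normalized reads were 311, 259 and 231 with mitoxantrone and 27.5, 39.2 and 27.4 with DMSO. All mitoxantrone libraries lay above all DMSO libraries, by 5.89 times at the nearest, with replicate 1 the highest of the mitoxantrone group and replicate 2 the highest of the DMSO group. Means were 267 ± 40.6 with mitoxantrone and 31.4 ± 6.75 with DMSO (SD, n = 3 each). The log2 fold change was 3.10 (standard error 0.21), or 8.56-fold. The summed reads were 739 with mitoxantrone (exact Poisson interval 687 to 794) and 102 with DMSO (83.2 to 124).

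PTPN22 had 177, 200 and 184 reads with mitoxantrone, against 21, 23 and 26 with DMSO. Normalized reads were 200.1, 208 and 198 with mitoxantrone and 18.0, 23.7 and 22.3 with DMSO. The groups did not overlap here either, and the nearest libraries differed 8.33-fold. Means were 202 ± 5.69 with mitoxantrone and 21.3 ± 2.94 with DMSO (SD, n = 3 each), a log2 fold change of 3.24 (standard error 0.20), or 9.46-fold. The summed reads were 561 with mitoxantrone (exact Poisson interval 516 to 609) and 70 with DMSO (54.6 to 88.4). PTPN22 varied least of the 3, with a coefficient of variation of 2.82% over the mitoxantrone libraries, against 10.7% for CEACAM1 and 15.2% for SLAMF7. With DMSO the coefficients were 13.8% for PTPN22, 40.4% for CEACAM1 and 21.5% for SLAMF7. The 177 PTPN22 reads of mitoxantrone replicate 1 alone carried an exact Poisson interval of 152 to 205. That is wider than the spread of 177 to 200 reads between its mitoxantrone libraries, so this order describes these counts only. Groups of libraries that do not overlap were the rule in this selected table, with 98.6% of its genes in either direction and 60.1% as higher with mitoxantrone, so the separation of the 3 genes is no result of its own.

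**Figure D1:**
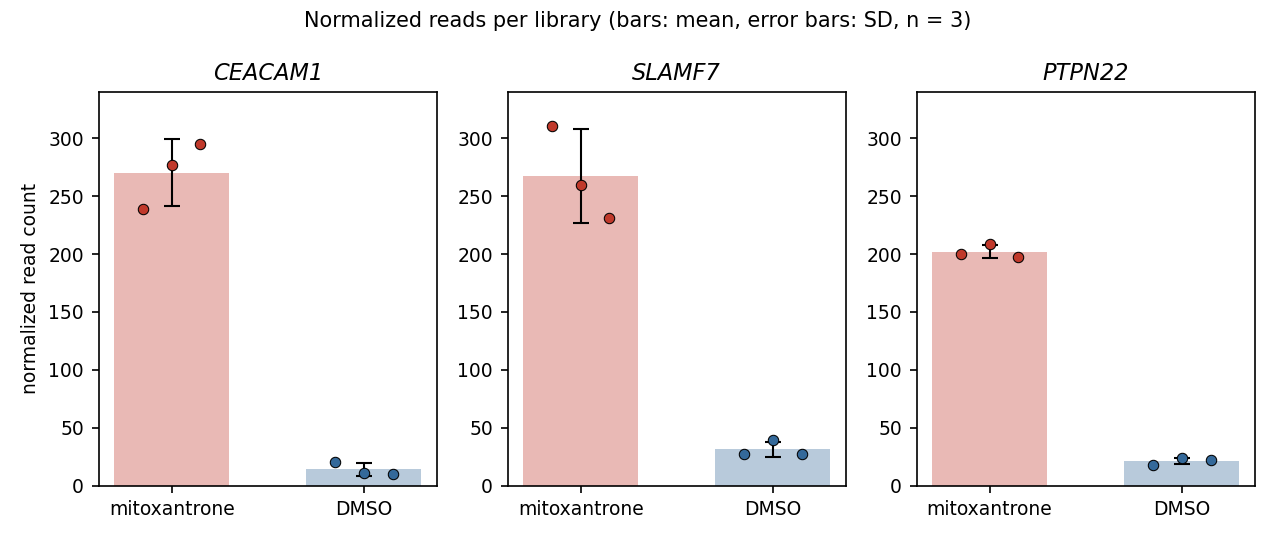
Normalized read counts (y axis) of CEACAM1, SLAMF7 and PTPN22 in the 3 mitoxantrone and the 3 DMSO libraries. Points are libraries, bars group means and error bars SD. All mitoxantrone points lie at 198 or higher and all DMSO points at 39.2 or lower.

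In bulk RNA, more cells that hold a transcript and more transcript per cell cannot be told apart, and both could give the levels above. The libraries within a group did not rank the genes alike. Among the mitoxantrone libraries CEACAM1 was lowest in replicate 1 (239 normalized reads), whereas SLAMF7 was highest there (311). Among the DMSO libraries CEACAM1 was highest in replicate 1 (20.6) and PTPN22 lowest there (18.0). For each gene the exact Poisson intervals of the DMSO counts overlapped between libraries, as for CEACAM1 in replicate 1 (15.4 to 35.7 reads) and replicate 3 (6.20 to 21.0).

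Per length, the 3 transcripts were at similar levels with mitoxantrone. SLAMF7 had 4.05, 3.45 and 3.15 FPKM with mitoxantrone and 0.39, 0.52 and 0.39 with DMSO. CEACAM1 had 2.59, 3.07 and 3.36 FPKM with mitoxantrone and 0.25, 0.13 and 0.12 with DMSO. PTPN22 had 2.66, 2.84 and 2.76 FPKM with mitoxantrone and 0.27, 0.32 and 0.32 with DMSO. With mitoxantrone SLAMF7 averaged 3.55 ± 0.46, CEACAM1 3.01 ± 0.39 and PTPN22 2.75 ± 0.09 FPKM (SD, n = 3 each), and the libraries of neighbours in that order overlapped. With DMSO the order was SLAMF7 at 0.43 ± 0.08, PTPN22 at 0.30 ± 0.03 and CEACAM1 at 0.17 ± 0.07 FPKM (SD, n = 3 each), and the libraries of neighbours did not overlap.

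Within libraries, the level of SLAMF7 was above that of PTPN22 in 3 of 3 mitoxantrone libraries (mean log2 ratio of FPKM 0.36 ± 0.22, SD) and in 3 of 3 DMSO libraries (0.51 ± 0.21, SD). The level of CEACAM1 was close to that of PTPN22 with mitoxantrone and above it in 2 of 3 libraries (mean log2 ratio 0.12 ± 0.16, SD). With DMSO it was above that of PTPN22 in 0 of 3 libraries (-0.94 ± 0.72, SD). In DMSO replicate 1 the log2 ratio was only -0.11, from 24 reads of CEACAM1 and 21 of PTPN22, whose exact Poisson intervals overlapped. Against CEACAM1, SLAMF7 was higher in 2 of 3 mitoxantrone libraries (mean log2 ratio 0.24 ± 0.37, SD) and in 3 of 3 DMSO libraries (1.45 ± 0.71, SD). The difference between these ratios is the difference between the fold changes and was not tested, for the reason given in the opening. Among the genes of the table, the mean FPKM of CEACAM1 with mitoxantrone was above that of 64.0% of genes, and its mean with DMSO above that of 19.3%. For SLAMF7 these shares were 66.4% with mitoxantrone and 34.9% with DMSO, and for PTPN22 62.2% with mitoxantrone and 28.3% with DMSO. The median gene of the table had 1.39 FPKM with mitoxantrone and 1.03 with DMSO.

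**Figure D2:**
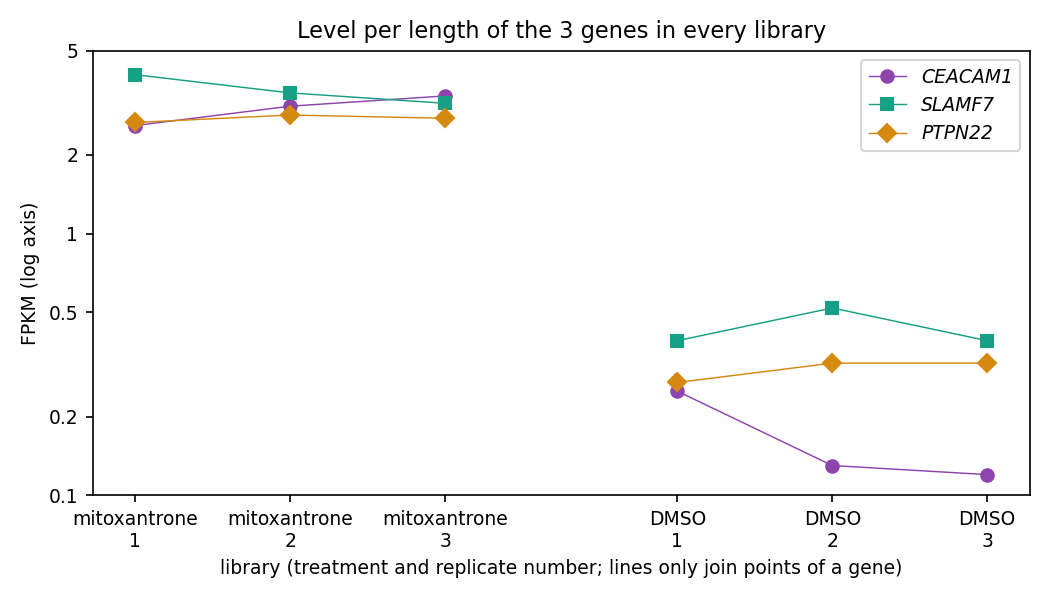
FPKM (y axis, logarithmic) of CEACAM1, SLAMF7 and PTPN22 in each mitoxantrone and DMSO library. With mitoxantrone the 3 genes lie between 2.59 and 4.05 FPKM, and with DMSO CEACAM1 lies lowest, down to 0.12.

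In the authors' deposited table the log2 fold changes were 3.84 for CEACAM1 (standard error 0.23), 2.89 for SLAMF7 (standard error 0.20) and 2.99 for PTPN22 (standard error 0.21). The adjusted p-values of the authors' deposited table were 4.99e-60, 3.58e-44 and 7.89e-42 for CEACAM1, SLAMF7 and PTPN22, and are the values by which these genes entered it. The table ranked CEACAM1 8th, PTPN22 21st and SLAMF7 24th by rise. In the fit to the deposited counts CEACAM1 ranked 29th, PTPN22 87th and SLAMF7 99th of the 1305 genes. Some genes ranked above them in the fit had 0 reads in every DMSO library, such as G0S2 (log2 fold change 6.69, standard error 1.17). For all 3 genes the fit gave a larger fold than the authors' deposited table, at 18.9 against the authors' 14.3 for CEACAM1, 8.56 against 7.40 for SLAMF7 and 9.46 against 7.93 for PTPN22. DESeq2 run on the same counts with the authors' size factors gave 19.1 for CEACAM1, 8.58 for SLAMF7 and 9.51 for PTPN22. Why the deposited folds were smaller was not tested. Of about 18310 genes that the authors tested, 4.33% were listed as higher and 2.80% as lower.

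**Figure D3:**
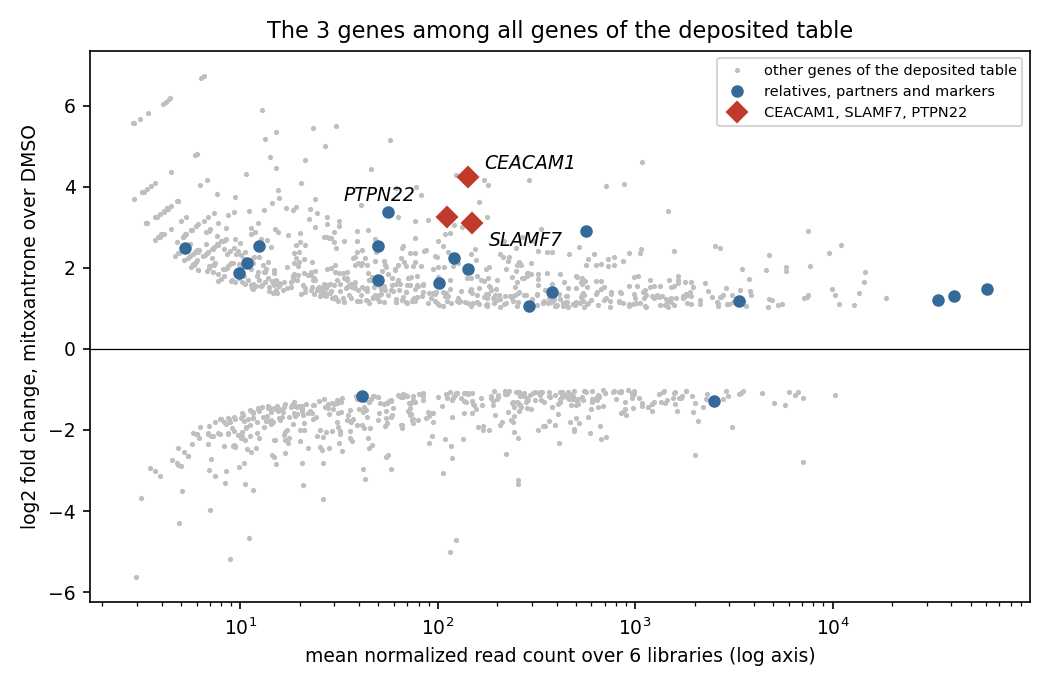
Log2 fold change (y axis, mitoxantrone over DMSO) against the mean normalized read count over the 6 libraries (x axis, logarithmic) for the 1305 genes of the deposited table. CEACAM1 at 4.24, PTPN22 at 3.24 and SLAMF7 at 3.10 lie at mean counts of 112 to 149, and no gene lies near 0 because the table holds selected genes.

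Relatives, binding partners and marker genes were taken from 11 lists with 190 genes besides the 3. Of these, 19 were in the deposited table, which held 7.13% of all genes tested. They were 17 genes listed as higher and 2 as lower with mitoxantrone, and the other 171 were not analysed here. The quasi-likelihood test of edgeR, with Benjamini-Hochberg adjustment over 18310 tests, called 15 of them higher and 2 lower at a threshold of 0.05. The background of that call was 56.7% of the table as higher and 35.4% as lower. The median log2 fold change of the 19 was 1.69, and that of the whole table was 1.26. The whole table mixes 793 higher and 512 lower genes, so these medians do not compare the size of rises. With TMM factors over the table's genes 9 passed as higher and 2 as lower, with PSTPIP1, ANXA2, INPP5D, ITGAM, RELB and KRT18 lost. With DESeq2 factors over the same genes 5 passed as higher and 2 as lower, with CEACAM19, PSG4, CD22 and KRT8 lost as well. None of the 19 changed direction under either, and the median log2 fold change of the whole table moved by -0.69 with TMM and -0.99 with DESeq2 factors. The 19 genes entered the table through this same comparison, so their calls repeat that selection and add no support to it. "Rose" and "fell" below mark these calls.

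Of 22 genes of the CEACAM and PSG family, 3 were listed, all higher. Besides CEACAM1 these were CEACAM19, a little studied member, and PSG4, a glycoprotein gene of the family best known from the placenta. CEACAM19 had 173, 123 and 166 normalized reads with mitoxantrone, against 54.1, 45.3 and 50.5 with DMSO, a 3.07-fold rise. PSG4 had 623, 563 and 472 normalized reads with mitoxantrone and 163, 220.5 and 239 with DMSO, a 2.66-fold rise. The calls for both ended with DESeq2 factors over the table's genes. The fold change of CEACAM1 was the largest of the 3. CEACAM1 was chosen with results of this comparison known and the other family genes were not analysed here, so this ranks no family. Of 17 partners and ligands of CEACAM1, ANXA2 was listed, which encodes annexin A2, a protein that binds calcium and membranes. It averaged 58768 ± 8264 normalized reads with mitoxantrone and 23706 ± 4348 with DMSO (SD, n = 3 each), a 2.48-fold rise.

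Of 11 SLAM family genes and adaptors, SLAMF7 and SLAMF9 were listed. SLAMF9, a short-tailed receptor of the family, had 97.2, 99.0 and 60.1 normalized reads with mitoxantrone, against 15.5, 16.5 and 12.0 with DMSO. The groups did not overlap, and the fold was 5.82. Per length SLAMF9 was at 4.52 ± 1.09 FPKM with mitoxantrone and 0.81 ± 0.12 with DMSO (SD, n = 3 each), above the SLAMF7 means of 3.55 FPKM with mitoxantrone and 0.43 with DMSO. Of 11 signalling partners of SLAM receptors, INPP5D and ITGAM were listed. INPP5D, which encodes the lipid phosphatase SHIP-1 of blood cells, averaged 4641 ± 272 normalized reads with mitoxantrone and 2047 ± 269 with DMSO (SD, n = 3 each), a log2 fold change of 1.18. ITGAM, an integrin subunit known in mouse to act with SLAMF7 on macrophages, had 12.4, 32.3 and 19.3 normalized reads with mitoxantrone, against 5.16, 1.03 and 4.28 with DMSO, a 5.79-fold rise. Its call ended without mitoxantrone replicate 2.

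PTPN22 was the 1 listed gene of 17 non-receptor tyrosine phosphatases, and PTPRN2 the 1 listed of 20 receptor-type phosphatases. PTPRN2, found in secretory granules of endocrine cells, had 7, 26 and 11 reads with mitoxantrone and 6, 1 and 7 with DMSO, and did not pass (edgeR adjusted p = 0.097). Of 15 partners and substrates of PTPN22, NLRP3 and PSTPIP1 were listed, both higher. NLRP3, the inflammasome sensor, had 84, 102 and 97 reads with mitoxantrone, against 13, 13 and 6 with DMSO. This was a 10.3-fold rise after scaling. PSTPIP1, an adaptor of the cytoskeleton in blood cells, had 16, 21 and 12 reads with mitoxantrone and 2, 6 and 5 with DMSO, a 4.35-fold rise. Its call ended without mitoxantrone replicate 2 or without DMSO replicate 1 or 3.

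Of 34 inhibitory receptors with cytoplasmic tyrosine motifs, CEACAM1, CD22 and CD33 were listed, all as higher. CD22, a sialic acid receptor of B cells, had 56.5, 72.9 and 98.7 normalized reads with mitoxantrone, against 23.2, 19.6 and 27.4 with DMSO, a 3.23-fold rise. CD33, a sialic acid receptor of myeloid cells, had 10, 7 and 8 reads with mitoxantrone and 0, 1 and 4 with DMSO, and did not pass (edgeR adjusted p = 0.063). Of 20 regulators of interferon and NF-kappaB responses, TNFAIP3, PRDM1 and RELB were listed and rose. TNFAIP3, which encodes the NF-kappaB inhibitor A20, rose 7.46-fold, PRDM1, the transcription factor Blimp-1 of plasma cells and epithelia, 4.71-fold, and RELB, an NF-kappaB subunit, 2.07-fold. The rise of RELB did not hold with TMM factors (1.29-fold) or DESeq2 factors (1.04-fold) over the table's genes.

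**Figure D4:**
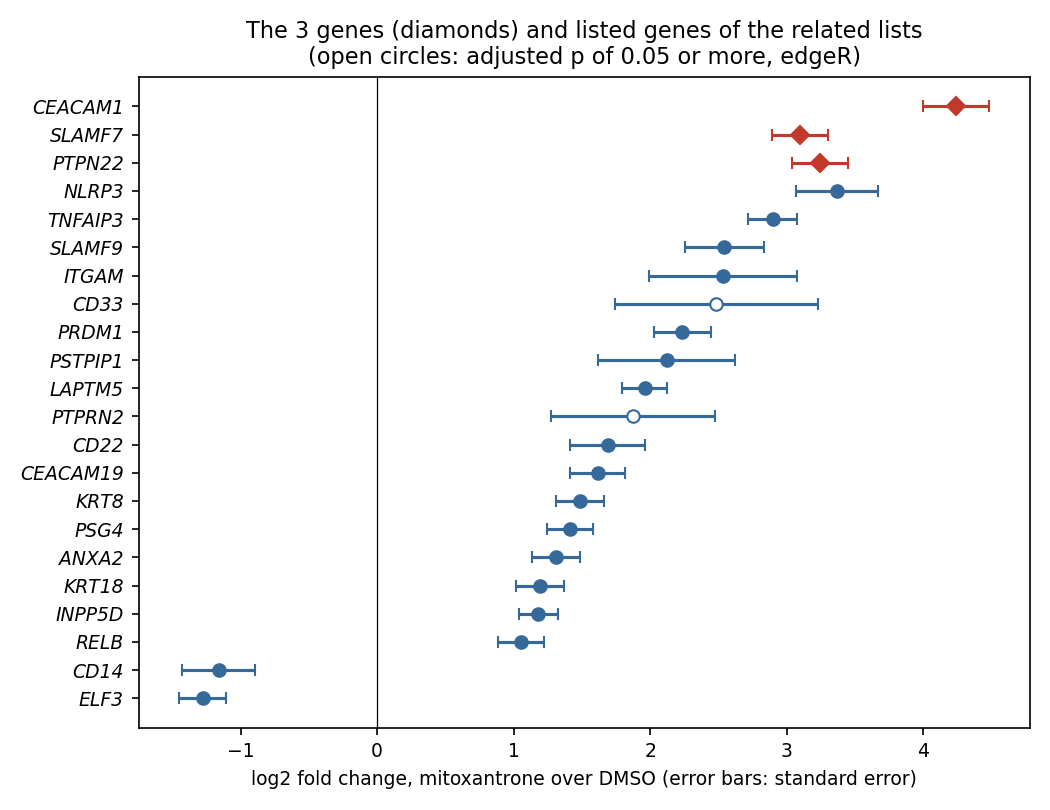
Log2 fold change (x axis, mitoxantrone over DMSO) with its standard error for CEACAM1, SLAMF7 and PTPN22 (diamonds) and for the 19 listed genes of the related lists (circles). NLRP3 at 3.37 lies above all other circles, and CD14 and ELF3 lie below 0.

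Markers of epithelial cells and of leukocytes were looked up in the deposited table. It holds only changed genes, so a marker at the same level in both groups cannot appear, and the labelled cell type cannot be checked. Of 20 epithelial markers, KRT8, KRT18 and ELF3 were listed, and the others were not analysed here. The keratin genes KRT8 and KRT18 averaged 1093 ± 90.0 and 909 ± 90.2 FPKM with mitoxantrone and 409 ± 51.2 and 416 ± 66.8 with DMSO (SD, n = 3 each), far above the levels of the 3 genes. The epithelial transcription factor gene ELF3 fell, with 12.5 ± 0.74 FPKM with mitoxantrone and 31.9 ± 8.55 with DMSO (SD, n = 3 each). Of 24 leukocyte markers, 3 were listed, with a summed level of 5.06 to 5.60 FPKM with mitoxantrone and 2.78 to 3.59 with DMSO. LAPTM5, a lysosomal membrane protein of blood cells, rose 3.89-fold and ITGAM 5.79-fold, whereas CD14, a coreceptor for bacterial lipopolysaccharide, had a log2 fold change of -1.16. The call for CD14 ended without mitoxantrone replicate 3 or DMSO replicate 3. The other 21 leukocyte markers, PTPRC (CD45) among them, were not analysed here. LAPTM5 and ITGAM moved with the 3 genes, and the part of other cells in those differences was not tested.

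By position, no other gene of the table overlapped any of the 3. The nearest listed genes to CEACAM1 were PSG4 at a gap of 631.5 kb (log2 fold change 1.41), B9D2 at 1141 kb (-1.16) and LYPD5 at 1235 kb (-1.93). Those nearest to SLAMF7 were LINC01133 at 760.2 kb (2.49), SLAMF9 at 785.0 kb (2.54) and PYHIN1 at 1762 kb (2.28). Those nearest to PTPN22 were NHLH2 at 1965 kb (1.54), FAM212B at 2058 kb (1.51) and RP5-1074L1.4 at 3441 kb (-1.74). Of all 1305 listed genes 793 were higher, and these neighbours were named for position alone, after their values were seen. In GENCODE, antisense genes cross CEACAM1 (LIPE-AS1) and PTPN22 (AL137856.1 and AP4B1-AS1). Their exons share 185 bases with the exons of CEACAM1 (3.35%) for LIPE-AS1, 105 bases with those of PTPN22 (2.33%) for AL137856.1 and 0 for AP4B1-AS1. These antisense genes were not analysed here. The pseudogene CEACAMP2 overlaps CEACAM1 on the same strand, shares 0 exon bases with it and was not analysed either. Whether the libraries kept the strand is not given in the sources used here, so reads from the shared bases cannot be told apart. GENCODE gave no gene that overlaps SLAMF7.

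Among 931 genes of the table with a mean of at least 20 normalized reads, likeness to each of the 3 was measured as the Euclidean distance between profiles over the 6 libraries, on the log2(normalized count + 1) scale and centred on each gene's mean. This distance mostly ranks genes by the size of their fold change. PTPN22 was the 5th nearest gene to SLAMF7 and SLAMF7 the 3rd nearest to PTPN22, at a distance of 0.46. CEACAM1 stood farther off, with PTPN22 as its 27th and SLAMF7 as its 38th nearest gene. The 5 genes nearest to CEACAM1 were STC1 (a secreted glycoprotein) at 0.52, KRT6B (a keratin) at 0.58, SERPINB2 (an inhibitor of plasminogen activator) at 0.74, ANGPTL4 (an inhibitor of lipoprotein lipase) at 0.76 and AREGB (listed as amphiregulin B) at 0.87. Those nearest to SLAMF7 were PDCD1LG2, which encodes the PD-1 ligand PD-L2, at 0.32, the iron-scavenging protein gene LCN2 at 0.33, MIR29A at 0.37, the chemokine gene CXCL2 at 0.45 and then PTPN22. Those nearest to PTPN22 were PLEKHG4B at 0.39, LCN2 at 0.42, SLAMF7, PDCD1LG2 at 0.47 and MIR29A at 0.52. PDCD1LG2 averaged 237 ± 25.6 normalized reads with mitoxantrone and 29.5 ± 5.86 with DMSO (SD, n = 3 each), an 8.07-fold rise.

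The direction of all 3 genes was the same under each of 14 alternatives. The genes were selected on this comparison and their groups lay far apart, so no alternative could have reversed it, and this adds no support. The size depended on the scaling. The folds ran from 16.5 to 24.8 for CEACAM1, 7.85 to 9.68 for SLAMF7 and 8.76 to 9.97 for PTPN22 when each library was left out in turn. With DESeq2 factors computed over the table's genes, which centre a set of mostly raised genes, they were 9.53 for CEACAM1, 4.32 for SLAMF7 and 4.77 for PTPN22. CEACAM1 had the largest fold of the 3 under all of these alternatives.

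**Figure D5:**
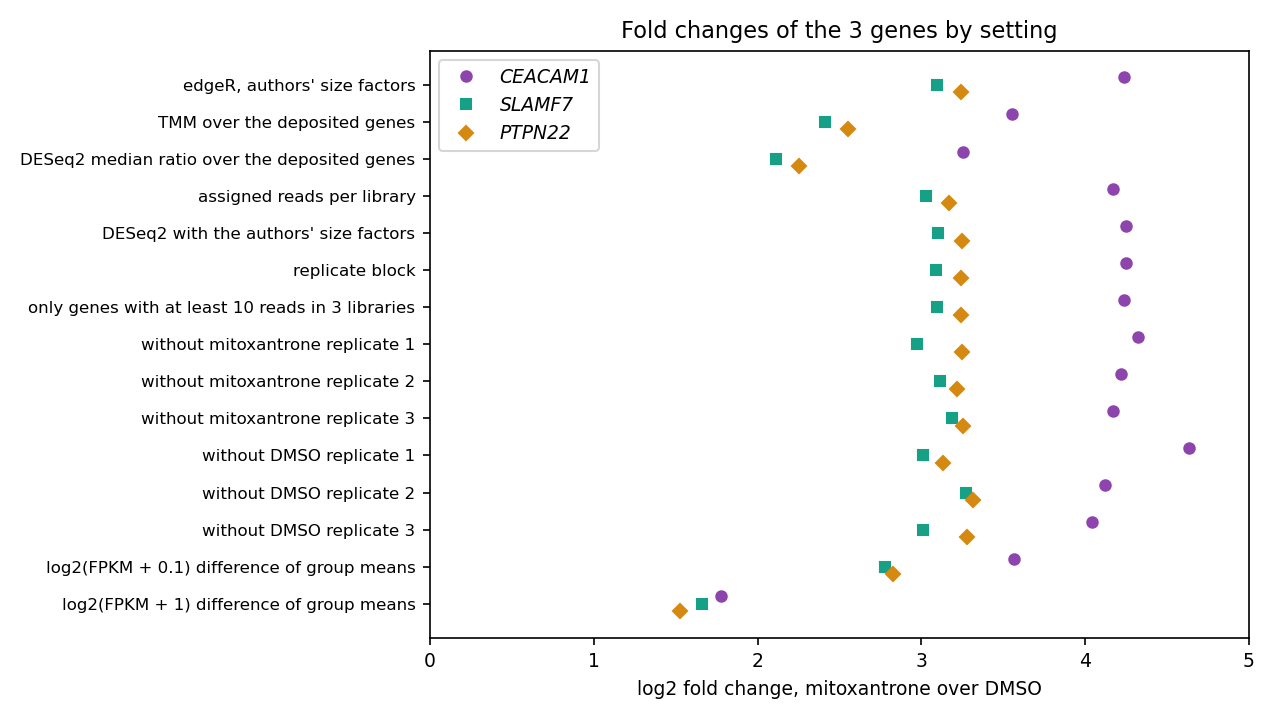
Log2 fold change (x axis, mitoxantrone over DMSO) of CEACAM1, SLAMF7 and PTPN22 under the fit used in the text (top row) and 14 alternatives (rows below). All values lie above 0, from 1.53 for PTPN22 with a pseudocount of 1 FPKM to 4.63 for CEACAM1 without DMSO replicate 1.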

How the data were processed

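The deposited table gives, per the file headers, raw counts and FPKM for each gene and library, and the mean normalized count, a signal scaled by the authors. Its other columns are the authors' log2 fold change, standard error, Wald score, p-value and adjusted p-value. The submitters' processing notes list DESeq2, Cufflinks 2.2.1, HTSeq 0.6.1, HISAT2 2.0.1 and cutadapt 1.9.1 without saying what each was used for. Per the labels' protocols, either poly(A) selection or ribosomal RNA removal preceded paired-end sequencing. The genome build is not given in the sources used here.

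The table is a selection: its smallest absolute log2 fold change was 1.00 and its largest adjusted p 0.043. Adjusted p-values divided by raw ones, at the first 50 ranks, gave the number of genes the authors tested as about 18310 (18301 to 18318). Such selection tends to give dispersions that are too small and folds that are too large. Size factors were solved from the deposited counts and mean normalized counts, and library totals from FPKM, counts and gene lengths. Counts were fitted in edgeR 4.0.16 (quasi-likelihood test, R 4.3.3) for treatment over all 1305 genes without a filter, with Benjamini-Hochberg adjustment over 18310 tests and a threshold of 0.05. Standard errors are the log2 fold change divided by the root of F. Replicates differed beyond sampling noise (chi-square per gene 3.05 to 29.0), so none was a duplicate.

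Named were the 3 genes, the listed genes of the 11 lists, and the 5 genes nearest to each by profile. Members and lists were chosen with earlier results of these data known. Alternatives were TMM and DESeq2 factors over the table, library totals, DESeq2 1.42.0, a replicate block, a filter of 10 reads in 3 libraries, each library left out, and log2(FPKM + 0.1) or log2(FPKM + 1).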

Additional observations from a re-analysis of the deposited data

How the results depend on the processing

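All alternatives kept the direction of CEACAM1, SLAMF7 and PTPN22, which the selection and the distance between the groups had fixed beforehand. Their log2 fold changes were 3.55, 2.41 and 2.55 with TMM factors and 3.25, 2.11 and 2.25 with DESeq2 factors over the table's genes. Those factors moved the median log2 fold change of the table by -0.69 and -0.99. On the log2(FPKM + 0.1) scale the values were 3.57, 2.78 and 2.82, and on the log2(FPKM + 1) scale 1.78, 1.66 and 1.53, since a pseudocount near or above the DMSO levels shrinks a fold. Leaving out each library gave 4.04 to 4.63 for CEACAM1, 2.97 to 3.28 for SLAMF7 and 3.13 to 3.32 for PTPN22. The count of genes called was 1202 (740 higher, 462 lower), 1022 to 1179 when a library was left out, 878 with TMM factors (366 higher, 512 lower) and 731 with DESeq2 factors (219 higher, 512 lower). The replicate numbers gave no sign of pairing, with correlations of -0.45, -0.27 and 0.23 between the deviations of same-numbered libraries. Between libraries of unlike number they ran from -0.50 (mitoxantrone 3 with DMSO 2) to 0.60 (mitoxantrone 1 with DMSO 2). Whether libraries were paired under other numbers was not tested. The replicate block gave 1198 calls and log2 fold changes of 4.25, 3.09 and 3.24. CD33 passed with that block (edgeR adjusted p = 0.048) and without DMSO replicate 3 (0.028), and PTPRN2 without mitoxantrone replicate 1 (0.028). The low DMSO counts, 47 to 102 reads per gene over 3 libraries, limit the precision of all 3 folds.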
